A study of Mus musculus with 4 samples.

Results

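The wide common regions are the broadest stretches of open chromatin that were called in every library of an ATAC-seq study of mouse embryonic stem cells. The peaks of 4 lists were merged wherever they overlapped by at least 1 bp, which gave 50231 union regions. A region was counted as wide and common when it lay on chromosomes 1 to 19, held a peak in all 4 lists and had a merged width of at least 800 bp. There were 501 such regions, or 0.997% of all union regions and 4.23% of the 11850 autosomal regions that were common to the 4 lists. The other 11349 common autosomal regions, all under 800 bp, served as the comparison and are called the narrower regions. Presence and width were measured values, so neither is a finding about the regions they selected.

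All libraries came from J1 cells of the 129SV strain, grown without feeders on gelatin in serum with leukemia inhibitory factor (LIF). The DR+/+ population was positive for MERVL and Zscan4c, and the DR-/- population was negative for both, with 2 libraries of each. MERVL is an endogenous retrovirus that is active in the mouse embryo at the 2-cell stage, and Zscan4c is a gene of the same stage. The labels do not say how the populations were separated or whether the libraries came from separate cultures. Spread between libraries may therefore be technical. The 4 lists held between 21630 and 40933 peaks, the longest being that of DR+/+ replicate 1. The peaks carry no gene names and were placed on mm9, for which no annotation or sequence was used here, so regions are given by position only.

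ATAC-seq marks places where the Tn5 transposase can enter chromatin. Most open sites are about as long as the gap left by a few displaced nucleosomes, as at an enhancer or a transcription start site. Broader open stretches are known from promoters of highly transcribed genes, from clusters of neighbouring enhancers and from sequences present in many copies, where reads of several copies can pile up at one position. Cells in the 2-cell-like state are known for dispersed chromocentres and more mobile histones than the embryonic stem cells around them.

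The wide regions ran from 800 to 4567 bp with a median of 965 bp, against a median of 357 bp for the narrower ones. Of these, 275 were under 1000 bp, 226 reached 1000 bp, 32 reached 1500 bp and the 7 widest measured at least 2029 bp. Together they spanned 529.759 kb. They took up between 4.92% and 6.24% of the bases in each peak list.

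The 3 regions just inside were chr4:49744370-49745169 and chr11:105945207-105946006, both of 800 bp, and chr3:8245771-8246571 of 801 bp. The 3 just outside were chr4:115893545-115894343 and chr13:21878851-21879649, both of 799 bp, and chr10:58496146-58496943 of 798 bp. Height is given throughout as the summit pileup, the number of reads stacked at the tallest point of the strongest peak, recovered as a whole number from the fold and p-value the authors deposited. For DR+/+ replicates 1 and 2 and DR-/- replicates 1 and 2, in that order, pileups were 18, 16, 11 and 12, then 39, 42, 33 and 38, then 62, 68, 59 and 54 in the 3 regions inside. In the 3 outside they were 30, 34, 28 and 29, then 32, 22, 25 and 22, then 19, 17, 15 and 13. Heights varied widely on both sides and their ranges overlapped.

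Most wide regions were not single blocks. Only 58 of 501 (11.6%) were 1 unbroken peak in all 4 lists, against 87.4% of narrower regions, and 67 were split in every list. The share split into more than 1 peak was 41.3% and 55.1% in the DR+/+ libraries and 49.1% and 62.3% in the DR-/- libraries, so the 2 populations overlapped. In narrower regions the share lay between 3.70% and 5.18%. A wider region has more room for several peaks, so these contrasts with narrower regions are set in part by the width rule. Where a list had several peaks in a region, neighbouring summits were a median of 461.5 and 453 bp apart in DR+/+ and 392.5 and 395 bp apart in DR-/-. The gaps between those peaks had medians of only 85 to 142.5 bp.

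The strongest summit moved from library to library within a wide region. Over the 6 pairs of libraries, the median distance between the strongest summits was 121 to 177 bp, against 34 to 37 bp in narrower regions. Between 25.3% and 30.3% of wide regions had their summits within 50 bp of each other in a given pair, and up to 25.7% had them more than 400 bp apart, where the narrower regions had at most 0.555%. Within a population the medians were 155 and 158 bp, and between populations they ran from 121 to 177 bp. Narrower regions had a median width of 357 bp, so most had no room for summits over 400 bp apart. The contrast with them is therefore set in part by the width rule and is a description.

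The libraries covered different amounts of the same regions. The median length covered by peaks was 875 and 742 bp in DR+/+ and 431 and 524 bp in DR-/-. In percent of merged width these were 91.0% and 74.8% in DR+/+, and 43.1% and 51.3% in DR-/-. Both DR+/+ values lay above both DR-/- values. Narrower regions were covered to 88.6%, 75.1%, 66.8% and 71.5% in the same order. Percent coverage has the merged width as its denominator, which the rule used, so these values are descriptions.

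A wide region could also owe its width to 1 library, and DR+/+ replicate 1 alone covered at least 800 bp in 339 of the 501. The corresponding numbers were 189 in DR+/+ replicate 2 and 53 and 63 in the DR-/- libraries. All 4 lists covered 800 bp or more in 28 regions. In 269 regions (53.7%) both DR+/+ libraries covered more than both DR-/- libraries, where the share over all common autosomal regions was 17.9%. The reverse held in 44 regions (8.78%), with 22.9% over all common autosomal regions. Since width made the selection, these shares are descriptions and nothing is read from them.

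The part shared by all 4 lists was short. This core had a median of 217 bp, or 20.2% of the merged width, against 48.2% in narrower regions, and 64 wide regions had no base covered in all 4 lists. Bases covered in both DR+/+ lists and neither DR-/- list came to 85.266 kb, or 16.1% of the bases in wide regions, spread over 449 of them. Bases covered in both DR-/- lists and neither DR+/+ list came to 2.577 kb, or 0.486%, in 69 regions. In narrower regions these shares were 6.05% and 1.09%.

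Leaving each list out of the selection gave a view of that list which the rule had not used. Regions chosen as wide and common in the other 3 lists held a peak in DR+/+ replicate 1 in 223 of 223 cases and in DR+/+ replicate 2 in 360 of 361. In DR-/- replicates 1 and 2 they held a peak in 459 of 490 (93.7%) and 435 of 455 (95.6%). Narrower regions chosen in the same way held one in 97.5%, 87.2%, 82.6% and 89.1%, so wide regions were found more often in every held-out list. Median coverage where a peak was present was 90.9% and 75.1% of the width in the held-out DR+/+ lists and 39.2% and 47.3% in the held-out DR-/- lists. For narrower regions the held-out coverage was 87.4% and 70.4% in DR+/+ and 60.1% and 67.6% in DR-/-. With a DR-/- list held out, both DR+/+ lists and 1 DR-/- list set the width. With a DR+/+ list held out, 1 DR+/+ list and both DR-/- lists did, so the held-out coverages of the populations are not like for like. A wider region also offers more bases for a peak to overlap, so these values are descriptions.

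**Figure D1:**
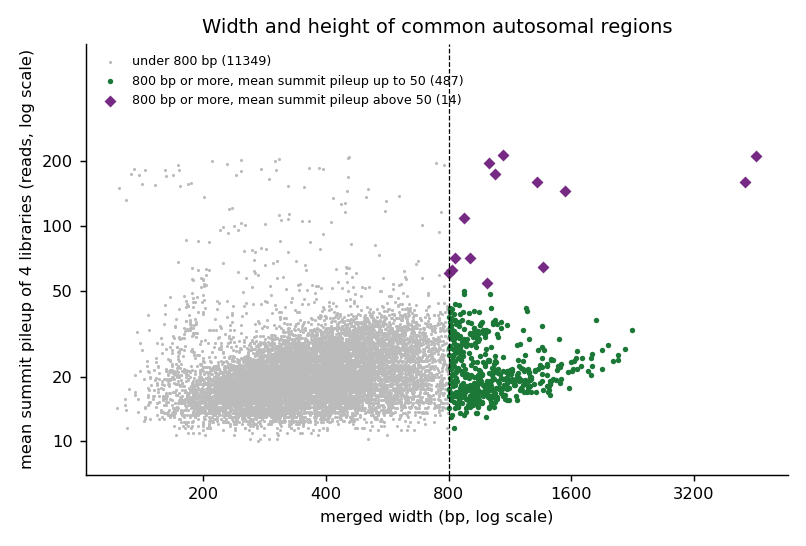
Merged width (bp, log scale) against mean summit pileup of the 4 libraries (reads, log scale) for the common autosomal regions, 1 point a region, with the 800 bp threshold as a dashed line. Of the 501 wide regions, 487 lie at a mean of 50 or less, mostly in a band near 20, and 14 stand above it.

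Wide regions were not the taller ones in every library. The summit pileup of wide regions had medians of 25 and 22 in DR+/+ and 17 and 18 in DR-/-. Narrower regions had medians of 23 and 19 in DR+/+ and 18 and 20 in DR-/-. The wide regions were therefore taller than narrower ones in both DR+/+ libraries and lower in both DR-/- libraries. Single values are imprecise at this depth: counting error alone puts a pileup of 17 between 9.90 and 27.2 (exact Poisson interval, 95%).

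The wide regions fell into bands of height with different properties. The bands were set after the values were seen, and the means used all 4 libraries alike. Of the 501 regions, 242 had a mean summit pileup of at most 20, 167 lay above 20 and up to 30, 78 above 30 and up to 50, and 14 above 50. The lowest band had a median core of 9.90% of the width, the next ones 29.1% and 59.3%, and the highest 94.8%. Regions made of 1 peak in every list were 13 of 242 in the lowest band, 9 of 167, 26 of 78, and 10 of 14 in the highest.

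Among the low, broad regions the DR+/+ libraries were often the higher ones. In the lowest band the median pileups were 22 and 19 in DR+/+ and 14 and 15 in DR-/-, with no overlap of the medians. Both DR+/+ libraries were above both DR-/- libraries, after centring each library on its median over common autosomal regions, in 158 of these 242 regions (65.3%), and below them in 3 (1.24%). Narrower regions of the same height gave 23.0% and 18.7%. In the band from 20 to 30, 104 of 167 wide regions (62.3%) were higher in this sense, against 25.9% of narrower ones. Median fold enrichment in the lowest band lay closer, at 5.42 and 4.98 in DR+/+ and 4.82 and 4.94 in DR-/-. Peaks covered a median of 89.4% and 66.5% of the width there in DR+/+ and 29.2% and 34.4% in DR-/-. The 800 bp was thus reached mainly in the DR+/+ lists, so these shares are not independent of the selection.

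In the taller bands the share with both DR+/+ libraries higher was close to that of narrower regions of the same height. In the band from 30 to 50 the median pileups were 41 and 35 in DR+/+ and 30 and 34 in DR-/-, so the populations lay close together. In this band 30 of 78 wide regions (38.5%) had both DR+/+ libraries above both DR-/- libraries, and 36.9% of narrower regions did. Above 50, this was true of 1 of 14 wide regions and 9.15% of narrower ones. In other respects wide and narrower regions of these heights differed: from 30 to 50, 33.3% of wide and 92.3% of narrower regions were 1 peak in every list. That contrast, too, is set in part by the width rule. No test was made of these differences between bands.

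**Figure D2:**
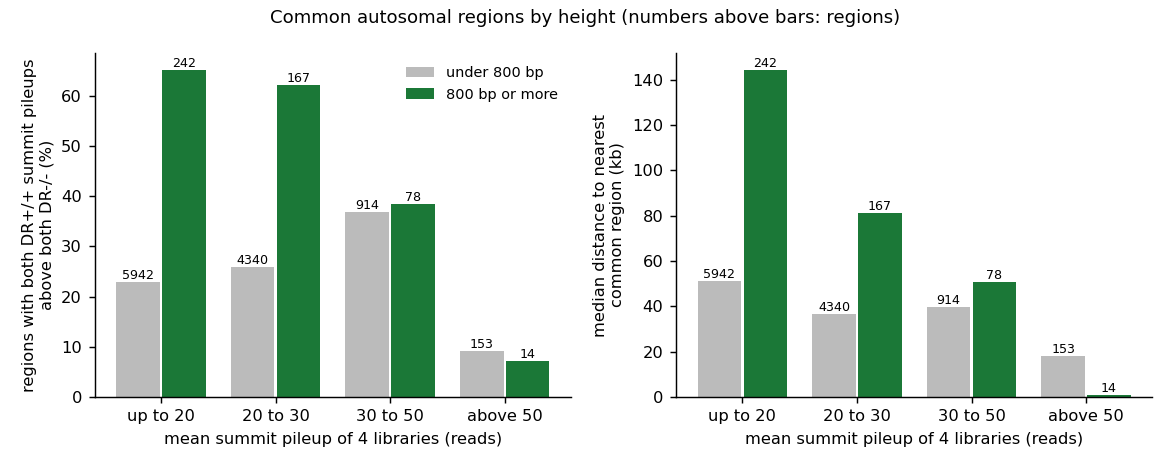
Common autosomal regions in 4 bands of mean summit pileup, with the number of regions above each bar; wide regions in green and narrower ones in grey. On the left is the percentage with both DR+/+ libraries above both DR-/- libraries, 65.3% against 23.0% in the lowest band. Width made the selection and was reached mainly in the DR+/+ lists, so this percentage is a description. On the right is the median distance to the nearest common region in kb, 145 against 51.4 in the lowest band.

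Over the wide regions as a whole, both DR+/+ pileups were above both DR-/- pileups in 293 (58.5%), against 26.5% of all common autosomal regions. They were below in 11 (2.20%), against 15.5%. Set against narrower regions within each library, the median log2 summit pileup of wide regions was 0.12 and 0.21 in DR+/+ and -0.08 and -0.15 in DR-/-. The means were 0.17 ± 0.06 and -0.12 ± 0.05 (SD, n = 2 libraries each), a difference of 0.28 on the log2 scale. The 2 groups did not overlap, and an exact two-sided permutation test over the libraries gave p = 0.333, the smallest that 2 against 2 can give. The 800 bp was reached mainly in the DR+/+ lists, so this difference is not independent of the selection, and the test cannot decide on it. With as many regions chosen by width in the DR-/- lists, the difference was 0.13.

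The local background under the peaks moved with this difference. Its median in wide regions was 3.61 and 3.27 reads in DR+/+ and 2.35 and 2.61 in DR-/-, which is 1.32, 1.27, 1.05 and 1.02 times that of narrower regions in the same libraries. The fold enrichment the authors deposited divides the pileup by this background. Its median in wide regions was 5.69 and 5.27 in DR+/+ and 5.09 and 5.23 in DR-/-, below that of narrower regions in all 4 libraries. With fold enrichment in place of pileup, 18.4% of wide regions had both DR+/+ libraries above both DR-/- libraries, against 17.9% of all common autosomal regions, and the difference in relative height was 0.02. The higher pileup in DR+/+ was thus accompanied by a higher background, and the part of the background in the difference was not tested.

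The selection favoured regions that were wide in the DR+/+ lists, so their pileup is not fully independent of it, and regions were also chosen by width in the DR-/- lists alone. The 501 common autosomal regions with the greatest length covered in the DR-/- lists, at least 614 bp, shared 291 regions with the wide set. Among them 42.7% had both DR+/+ pileups above both DR-/- pileups and 6.99% had them below, against 26.5% and 15.5% of all common autosomal regions. Their log2 height relative to the remaining regions was 0.38 and 0.45 in DR+/+ and 0.30 and 0.28 in DR-/-, so that regions chosen in this way were tall in every library. Lists cut to equal length gave 46.0% of 426 wide regions, against 18.1% of all common autosomal regions.

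The difference grew with width. Among common regions of 600 to 699 bp, both DR+/+ libraries were above both DR-/- libraries in 36.9%. The share was 49.8% of the 275 regions from 800 bp to under 1000 bp, 65.0% of the 157 of 1000 to 1299 bp and 78.3% of the 69 of 1300 bp or more. Over the same classes from 800 bp upward, the relative log2 pileup in DR+/+ replicate 1 was 0.18, 0.06 and 0.28. In DR-/- replicate 2 it was -0.07, -0.23 and -0.07. The libraries of each population ran side by side across the classes and the 2 populations lay farthest apart from 800 bp on.

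**Figure D3:**
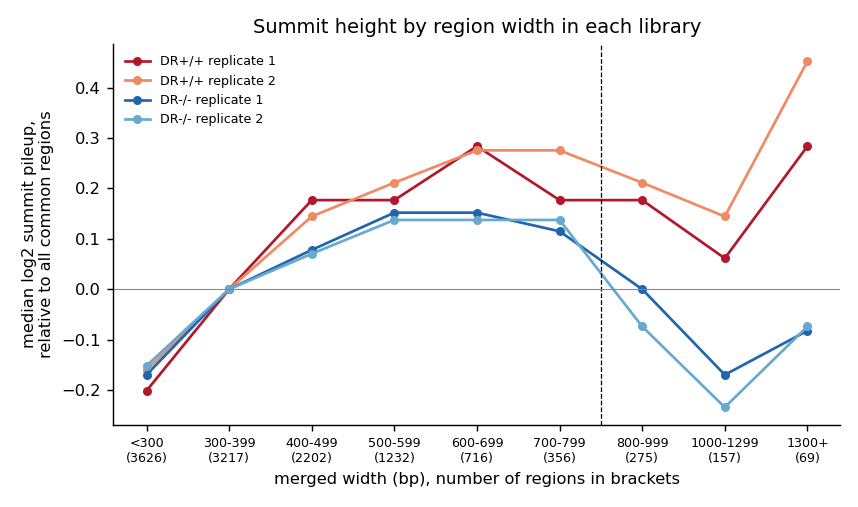
Median log2 summit pileup, relative to all common autosomal regions, in 9 classes of merged width (bp), 1 line a library. The 2 DR+/+ lines lie above the 2 DR-/- lines in every class from 400 bp, and the gap is widest in the classes beyond the dashed line at 800 bp. Great merged width was reached mainly in the DR+/+ lists, so the classes are not independent of the populations.

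Few single regions passed a test. With limma on log2 summit pileup and Benjamini-Hochberg adjustment over the 11850 common autosomal regions, 13 wide regions (2.59%) were higher in DR+/+ at adjusted p under 0.05, against 0.717% of all regions tested. None was lower in DR+/+, against 0.143% of all. Without adjustment, limma gave 139 wide regions (27.7%) higher and 0 lower at p under 0.05, against 9.21% and 4.05% of all regions tested. Over all common autosomal regions, covered width and summit pileup went together, with Spearman's rho of 0.41 to 0.51 in the 4 libraries. The wide regions reached their width mainly in the DR+/+ lists, so these shares of calls are not independent of the selection. The 13 calls were lost under other scalings: limma gave 0 with quantile normalization, 0 with libraries scaled by their lowest background and 0 with fold enrichment. It also gave 0 with any of the 4 libraries left out, but such fits of 2 against 1 called at most 3 regions in all and say little about the wide ones.

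The call with the smallest p was chr16:27423464-27425069, of 1606 bp. Its summit pileups were 34 and 26 in DR+/+ and 12 and 13 in DR-/-, and the populations did not overlap. The log2 difference was 1.11 (SE 0.23, limma adjusted p = 0.00299). Peaks covered 1497 and 1045 bp of it in DR+/+ and 223 and 211 bp in DR-/-. Only the DR+/+ lists covered 800 bp of it, so its p is not independent of the selection. No base was shared by all 4 lists, and 780 bp were covered in both DR+/+ lists only. The log2 difference was 1.07 with quantile normalization, 1.01 with lowest background scaling, 0.46 with fold enrichment and 0.66 without DR+/+ replicate 1.

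The next calls were shorter and had a similar build. At chr6:117037258-117038214 (957 bp) pileups were 30 and 22 in DR+/+ and 10 and 13 in DR-/-, a log2 difference of 1.03 (SE 0.24, limma adjusted p = 0.0129). A single peak spanned 957 and 908 bp in DR+/+, where the DR-/- lists had one of 126 and 193 bp. At chr12:66367076-66367939 (864 bp) pileups were 27 and 29 against 13 and 13, a difference of 0.97 (SE 0.23, limma adjusted p = 0.0150). The DR-/- peaks there, of 241 and 103 bp, did not overlap each other, as the map of peaks shows. In both regions the DR-/- lists fell far short of 800 bp, so these p-values are not independent of the selection.

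At chr5:46849785-46850971 (1187 bp) pileups were 37 and 27 in DR+/+ and 14 and 18 in DR-/-, a log2 difference of 0.85 (SE 0.21, limma adjusted p = 0.0199). One peak of DR+/+ replicate 1 filled the whole region, and no base was shared by all 4 lists. At chr4:16052538-16053464 (927 bp) pileups were 32 and 27 against 14 and 15, a difference of 0.88 (SE 0.22, limma adjusted p = 0.0206). This region kept a core of 408 bp, and the DR-/- lists split it into 3 and 2 peaks. In each of these 5 regions both DR+/+ pileups were above both DR-/- pileups. The 5 were named for their small p, so this is no separate finding. Wide regions reached their width mainly in the DR+/+ lists, so the p-values of the 5 are not independent of the selection either.

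**Figure D4:**
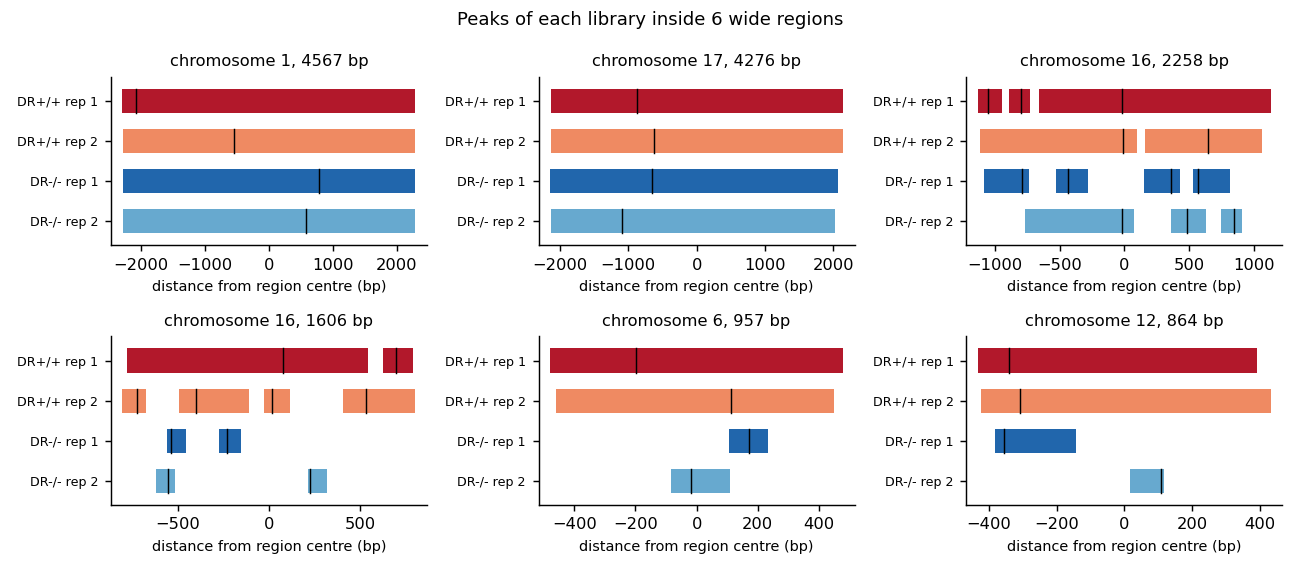
Peaks (bars) and their summits (black lines) in each library as distance from the region's centre (bp), for the 3 widest regions (top) and the 3 regions with the smallest limma p (bottom). The 2 widest, of 4567 and 4276 bp, are 1 peak of nearly the same extent in all 4 libraries; in the other 4 regions both DR+/+ libraries cover more bases than both DR-/- libraries, and broken coverage is found in both populations.

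The widest regions showed 2 kinds of build. The widest of all, chr1:24618414-24622980 (4567 bp), was 1 peak in every list with a core of 99.8%. Its pileups were 215 and 227 in DR+/+ and 203 and 201 in DR-/-, a log2 difference of -0.01 once the libraries were centred. These lay close to the highest pileups of the lists, 216, 229, 208 and 206, so little is read from this difference. The fold enrichment of the region was low, between 2.21 and 2.24, since its local background lay between 89.5 and 102 reads. The second, chr17:39979990-39984265 (4276 bp), was alike, with pileups of 170, 171, 147 and 153, a core of 97.1% and fold enrichments of 1.99 to 2.01.

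The other 13 of the 15 widest had smaller cores, of 3.16% to 35.5% of their width, and none had a mean pileup above 50. The third widest lay in the band from 30 to 50. At chr16:28293087-28295344 (2258 bp) pileups were 39 and 42 in DR+/+ and 22 and 28 in DR-/-, and 506 bp were common to all lists. At chr9:80849705-80851870 pileups were 35 and 25 against 22 and 25, so the populations touched. At chr4:21308565-21310649 (2085 bp) they were 31 and 30 against 15 and 20, and 922 bp were covered in both DR+/+ lists only. None of these 3 passed the limma test.

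Splitting differed between lists at the same place. chr7:14671743-14673825 (2083 bp) was a single peak in DR+/+ replicate 1 and 4 peaks in each of the other lists. chr5:128355394-128357302 (1909 bp) was 1 peak in both DR+/+ lists and 3 and 4 peaks in the DR-/- lists, with pileups of 28 and 28 against 16 and 15. chr3:22629457-22631098 (1642 bp) held the most peaks of any list, 6 in DR-/- replicate 2, against 4 in DR-/- replicate 1 and 1 in each DR+/+ list. Across all wide regions, both DR+/+ lists had fewer peaks than both DR-/- lists in 51 and more in 25. The matching share over all common autosomal regions is not given here, so nothing is read from these counts.

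Some of the 15 widest differed little in height. At chr3:66438139-66440045 (1907 bp) pileups were 28 and 28 in DR+/+ and 26 and 24 in DR-/-, a log2 difference of 0.02 after centring. At chr12:63648756-63650784 (2029 bp) they were 27 and 24 against 20 and 23, a difference of 0.11. By contrast chr6:56196797-56198599 (1803 bp), the 12th widest, had 35 and 24 against 15 and 16. It passed the test at a limma adjusted p of 0.0464, with 1096 bp covered in both DR+/+ lists only. This p is likewise not independent of the selection. The remaining ones, chr17:12209525-12211492, chr6:66957350-66959189, chr10:46692624-46694424, chr6:35295561-35297353 and chr11:71196501-71198288, had log2 differences from 0.32 to 0.56.

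The 14 regions above a mean pileup of 50 had the largest median core of any band, 94.8%, and their lowest core was 59.0%. Core share also rose with height below this cut, and narrower regions above 50 shared the trait. Of those 153, 95.4% were 1 peak in every list, and their median core was 85.6%. In the 14 wide ones, median pileups were 128 and 129 in DR+/+ and 123 and 128 in DR-/-. Their local background was 18.8, 19.2, 15.5 and 17.0 reads, against 3.55, 3.25, 2.34 and 2.59 in the other 487. Their median difference between populations was -0.01 on the log2 scale, where the other 487 had 0.28 and narrower regions above 50 had 0.01. After the region on chromosome 1, the largest cores were 99.4% at chr2:98506399-98507488, 98.9% at chr15:74915929-74917471, 98.6% at chr9:3000038-3001045 and 97.7% at chr2:22444689-22445730. At the other end, the first of the 64 regions with no core by position were on chromosome 1, starting at 28344823, 48603077, 75711006, 85044070 and 140208102.

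These heights reached the top of the lists. The region chr2:98506399-98507488 had pileups of 216, 228, 208 and 206, and the highest pileups in the 4 lists were 216, 229, 208 and 206. The 2 mitochondrial peaks of each list, whose DNA is present in many copies a cell, had pileups of 214 to 216, 228 to 229, 205 to 206 and 203 to 204. How reads that match several places were treated is not given in the sources used here, and its part in the tall regions was not tested. Of the 14 tall regions, 6 were within 500 kb of the first common region of their chromosome, where 8 of the 501 wide regions and 148 of all common autosomal regions lay.

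The wide regions lay farther from other common regions than narrower ones did. The median distance to the nearest common region was 98481 bp, against 43381 bp, and 31.9% had one within 50 kb, against 54.2%. The gap was smaller without DR+/+ replicate 1, at 59.6 kb for the 223 regions then wide and 42.0 kb for narrower ones. Within 10 kb, any union region was found beside 40.5% of wide and 49.2% of narrower regions, but this turned without DR+/+ replicate 1, to 48.4% of wide and 43.4% of narrower regions. Distance was not used in the selection, but regions are not replicates, so these shares are given without a test.

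Isolation increased with width up to 1299 bp, and the gap to narrower regions was largest in the lowest band of height. The median distance was 38.1 kb below 300 bp, 66.4 kb from 700 to 799 bp and 80.2 kb from 800 bp to under 1000 bp. It was 132 kb from 1000 to 1299 bp and 131 kb from 1300 bp on. In the lowest band of height, wide regions were a median of 145 kb from the nearest common region, against 51.4 kb for narrower regions of that height. In the band from 20 to 30 the distances were 81.0 and 36.4 kb, and from 30 to 50 they were 50.7 and 39.8 kb. The 14 tall regions had a median of 0.824 kb, against 18.1 kb for narrower regions of that height.

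**Figure D5:**
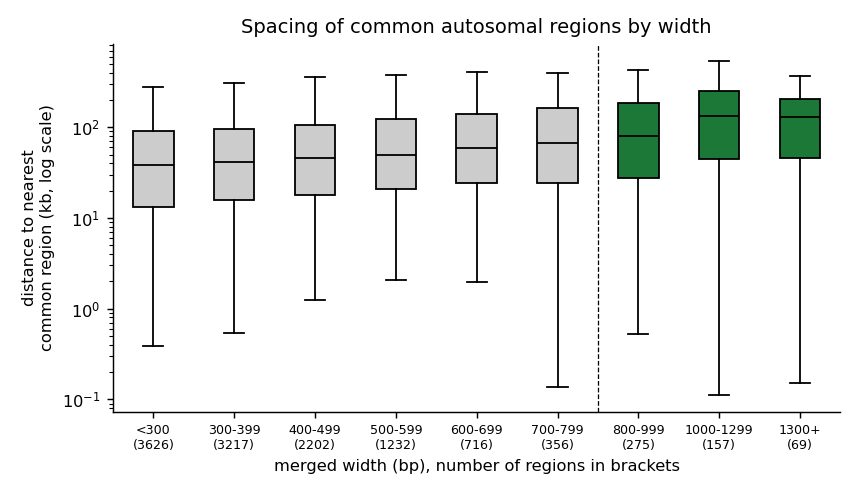
Distance to the nearest common region (kb, log scale) by merged width (bp) for the common autosomal regions; boxes give the quartiles, the line the median, and whiskers the 5th and 95th percentiles. The median rises from 38.1 kb in the narrowest class to over 130 kb in the 2 widest.

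Close by, the pattern was different. Within 1 kb, 28.1% of wide regions had another union region, against 22.3% of narrower ones. Regions found only in DR+/+ lists lay within 1 kb of 14.8% of wide regions, against 9.50%, and regions found only in DR-/- lists lay there in 1.80%, against 3.63%. No region found in both DR-/- lists and neither DR+/+ list lay within 1 kb of a wide region, against 0.414% for narrower ones. A merged region takes in every peak that touches it, so these nearest neighbours depend on where merging stopped.

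Wide regions rarely adjoined each other, and 6 of the 501 had another within 10 kb. The pairs were chr17:3081514-3082877 with chr17:3083702-3084530, chr17:39979990-39984265 with chr17:39984417-39985733, and chr8:19800436-19801294 with chr8:19801586-19802761. The gaps were 824, 151 and 291 bp. Both pairs on chromosome 17 were among the 14 tall regions. In chr17:39984417-39985733 the pileups were 166, 174, 146 and 152, close to those of the longer region beside it.

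Chromosomes differed in their share of wide regions. Of the common regions on each, between 2.42% (chromosome 10, 16 of 661) and 5.69% (chromosome 6, 36 of 633) were wide. Chromosomes 11 and 19 were also low, at 2.50% and 2.69%, and chromosomes 14, 12 and 3 were high, at 5.68%, 5.59% and 5.48%. Chromosome 7 held the most, 43. Chromosomes with more common regions per Mb had a smaller share of wide ones: over 19 chromosomes Pearson's r was -0.49 and Spearman's rho -0.52, a description in which all points share the same 4 libraries and the share has the number of common regions as its denominator.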

How the data were processed

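ATAC-seq peak lists of 4 libraries, 2 DR+/+ and 2 DR-/-, were analysed, grouped and numbered by their titles. Reads were placed on mm9, and the tools listed were Bowtie2 2.3.0, SAMtools 0.1.19 and FastQC 0.10.1, per the submitters' processing notes. Which caller made the peaks, and how it treated Tn5 offsets, duplicates and reads with several matches, is not given in the sources used here. Broad or narrow calling and duplicate removal would both change widths and pileups.

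Each list was called on its own library. The authors deposited for each peak a score, a fold enrichment (ratio over local background), the −log10 p-value and −log10 q-value, and the summit offset. The whole-number pileup and its background were recovered from fold, taken as (pileup + 1)/(background + 1), and the Poisson upper tail; all peaks came out whole within 0.001. The lists give no library totals, so depth is known only at summits.

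Peaks were merged over at least 1 bp of overlap. A region's pileup in a library is that of its strongest peak, as log2 centred by the median over common autosomal regions. limma 3.58.1 (R 4.3.3, trend, Benjamini-Hochberg, threshold 0.05, no covariates) was fitted over all 11850 such regions. Tested on simulated data of this size with Poisson counting error only, it recovered 4.18%, 30.4% and 82.1% of changes of 1.5, 2 and 3 fold. False calls averaged 3.6 a run. Variation between libraries beyond counting error was not simulated, so recovery in the real data may differ. Medians per library were compared by exact permutation. Python 3.11.15 with pandas 2.3.3, NumPy 2.4.6 and SciPy 1.17.1 was used.

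Regions were named by rule: the 15 widest, the 5 calls with the smallest p in each direction, the 5 largest and 5 smallest cores, up to 3 with the most peaks, 3 on each side of the width threshold, and the closest group. The members, the lists and the rules were chosen with earlier results of these data known, and the bands of height, the group above 50 and the choice by DR-/- widths were set after the values were seen. Alternatives covered width, merging, q, list length, scaling, trend, replicate block and each library left out. No mm9 genome or annotation was used, so genes and sequence are not analysed here.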

Additional observations from a re-analysis of the deposited data

How the results depend on the processing

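The number of wide common regions was 501, and became 1573 at 600 bp, 226 at 1000 bp, 1390 when gaps of up to 500 bp were merged and 151 when each list had to cover 50% of the width. It was 449 at a q of 0.001, 426 with lists of equal length, and 223 to 490 with 1 library left out, the lowest without DR+/+ replicate 1.

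The 13 limma calls higher in DR+/+, of 501 wide regions, became 0 with quantile normalization, lowest background scaling or fold enrichment. With a mean pileup of at least 20 there was 1 of 264 (15 of 5886 over all regions tested). There were 21 of 501 without the trend (89 of 11850) and 5 of 449 at a q of 0.001 (29 of 10744). The wide set itself changes with the width threshold. It gave 23 calls of 1573 at 600 bp and 5 of 226 at 1000 bp, so these counts are not like for like. Fits with 1 library left out assume that a lone library varies like the rest, so their counts say little. At unadjusted p under 0.05 limma gave 105, 63 and 8 wide regions higher in the first 3 of these settings (21.0%, 12.6% and 1.60%, against 5.65%, 3.41% and 3.66% of all regions tested), and 35 to 77 with a library left out (13.6% to 16.9%, against 4.18% to 5.63%), where at most 3 of all regions passed adjustment. Over all regions tested, the calls were 85 higher and 17 lower, but 1 and 4 with lowest background scaling, which moved the median of all differences by -0.10, 29 and 26 at a q of 0.001, 15 and 8 with a mean pileup of at least 20, and 0 and 3 without DR+/+ replicate 1. A replicate block left 11 calls among wide regions, with 67 higher over all regions tested. The replicate numbers did not pair the libraries (correlation of deviations -0.02).

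The share of wide regions with both DR+/+ pileups above both DR-/- pileups, 58.5%, was 43.5% with lowest background scaling (15.5% over all common regions), 18.4% with fold enrichment, 44.7% at 600 bp, 69.0% at 1000 bp, 42.7% by DR-/- widths, 46.5% at a q of 0.001 (18.1%), 46.0% with equal lists and 63.3% to 66.8% with 1 library left out (31.0% to 36.3%). The difference in relative height kept its sign in 13 of 13 alternatives, from 0.02 with fold enrichment to 0.37 at 1000 bp. All of these chose regions by width, so the kept sign is not independent of the selection. The 40.5% with a neighbour within 10 kb became 31.5% within 5 kb, 79.2% within 50 kb, 11.6% counting common neighbours only, and 38.9% to 48.4% with 1 library left out, the highest without DR+/+ replicate 1, where narrower regions had 43.4% and the direction turned. The median distance to the nearest common region, 98.5 kb, was 59.6 to 92.6 kb with 1 library left out, against 36.4 to 42.0 kb for narrower regions. The settings on distance and on the share, the choice by DR-/- or DR+/+ widths and the omission of the 14 tall regions were added after the data were seen. Peak lists hold no reads outside peaks, and pileups near 20 limit what can be called.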

Other observations

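Chromosome X lay outside the selection. Of its 458 common regions, 63 (13.8%) were at least 800 bp wide, against 4.23% on the autosomes, and the widest measured 2054 bp. The median width of all its common regions was 398 bp, against 366 bp on the autosomes. Median summit pileups of the 63 were 21 and 19 in DR+/+ and 13 and 15 in DR-/-, and those of the 395 narrower X regions were 19 and 16 against 14 and 15. With libraries centred on autosomal regions, both DR+/+ libraries were above both DR-/- libraries in 46 of the 63 (73.0%) and in 122 of the 395 (30.9%). Peaks covered a median of 913 and 792 bp of the 63 in DR+/+ and 405 and 428 bp in DR-/-. The wide X regions were less covered in DR-/-, as wide autosomal regions were by median, but merged width chose both sets, so this is a description. Low pileups were not particular to the wide X regions. The narrower X regions also lay below the narrower autosomal medians of 23 and 19 in DR+/+ and 18 and 20 in DR-/-.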
